A study of Mus musculus with 15 samples.

Results

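The genes described here are the 100 gene symbols whose RNA in the mouse stomach was furthest above its later levels at E12.5 and E13.5. They were chosen by their own FPKM (fragments scaled to transcript length and library size). Each symbol received a score, the mean log2(FPKM + 1) at E12.5 and E13.5 minus the highest log2(FPKM + 1) from E15.5 to W8. The 100 highest scores were taken from 12398 symbols that reached an FPKM of at least 5 at any time point, out of 44788 symbols in all, after globins, Hox genes and mitochondrial genes had been left out. The fall from E12.5 and E13.5 to the later time points is therefore what selected these genes and is given as a description, with no test. Because the highest later value enters the score, genes that rose after E15.5 were also selected against.

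The stomachs came from C57BL/6 mice with no transgene or treatment, daily from E12.5 to E18.5 before birth, on D1, D3 and D5 after it, then in the first 3 weeks (W1 to W3), and finally at W6 and W8, with 1 RNA-Seq transcriptome per time point and 15 in all. Per the study's methods, whole organs were used, sex was not distinguished up to W2, and the older mice were male. Stomachs of several embryos were combined per replicate up to E17.5 and single stomachs were used later, so pooling and age cannot be told apart. No time point was replicated, so no value has an error between animals. The deposited bounds of a value, 2 standard errors on either side, cover counting error only.

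The early stomach is a tube of endoderm wrapped in a thick mesenchyme from the splanchnic mesoderm. Homeobox factors of that mesenchyme set up the pylorus and the neighbouring spleen, retinoic acid patterns the foregut, and neural crest cells enter along a path of GDNF to build the enteric nervous system. HMGA2, IGF2BP1 and MYCN belong to an embryonic programme that the let-7 microRNAs silence, and LIN28 proteins hold let-7 back. In a bulk sample, fewer cells of a type and less RNA per cell cannot be told apart.

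Of the 100 symbols, 83 matched a protein-coding gene in RefSeq, 4 a long non-coding RNA and 3 a pseudogene, and the other 10 were matched to no RefSeq name. The scores ran from 2.70 to 0.76 with a median of 0.95. Maximal FPKM ranged from 5.19 to 1716 (Mdk, the growth factor midkine), and 57 genes stayed under 20. The highest value lay at E12.5 for 92 genes, at E13.5 for 7 and at E14.5 for Notum alone. At the score limit the genes were close together. Dnm3os, Ecel1, Lsm14b, Arnt2 and Hist1h2bk were the last inside, with scores of 0.7835, 0.7786, 0.7766, 0.7756 and 0.76311. Ets1, Hic1, Pcdh18, Nefm and Nr2f1 were just outside, with scores of 0.76296, 0.7624, 0.7513, 0.7506 and 0.7498. Among the genes left out by class, the globins Hbb-bh1, Hbb-y and Hba-x had scores of 4.28, 4.196 and 3.43, above every chosen gene. Hoxa4 and Hoxb8, with scores of 1.13 and 0.844, lay in the range of the chosen genes.

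Counting depth separated the genes. If the bounds are Poisson, the tables rest on about 10600000 to 16900000 fragments per time point, and 85 genes had at least 100 fragments at the better of E12.5 and E13.5. A further 10 genes had from 10 to under 100 fragments. The remaining 5 genes, LOC102636593, LOC102639965, LOC102637895, LOC102640196 and LOC102632542, had under 10 fragments and were listed at 0 in the other 14 of the 15 transcriptomes. LOC102636593 had the highest score of all, from 40.98 FPKM at E12.5 with bounds of 0 and 157. LOC102639965 was at 9.56 FPKM and LOC102637895 at 5.42 FPKM, both at E13.5. LOC102640196 was at 5.399 FPKM and LOC102632542 at 5.19 FPKM, both at E12.5. Their scores rest on a handful of fragments in 1 transcriptome, and the summaries below use the other 95 genes.

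The mature let-7a sequence and its matches in Hmga2 and Igf2bp1 are shown because both genes were among the early-lost set and each held 4 matches, a number reached by 6 of 11561 expressed genes with a 3′ UTR. The let-7a-5p sequence is from RefSeq (GRCm38), with the seed, bases 2 to 8, in capitals.
mmu-let-7a-5p: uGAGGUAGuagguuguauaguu
The matches are on the transcript strand in the longest GENCODE M21 3′ UTR of each gene, with the 7 letters complementary to the seed (CTACCTC) in capitals.
Hmga2, UTR position 58, chr10:120364224-120364245, minus strand: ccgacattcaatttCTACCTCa
Hmga2, UTR position 1295, chr10:120362987-120363008, minus strand: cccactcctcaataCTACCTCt
Hmga2, UTR position 1733, chr10:120362549-120362570, minus strand: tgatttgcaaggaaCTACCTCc
Hmga2, UTR position 2591, chr10:120361691-120361712, minus strand: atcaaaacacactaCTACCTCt
Igf2bp1, UTR position 1715, chr11:95961778-95961799, minus strand: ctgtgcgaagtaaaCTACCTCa
Igf2bp1, UTR position 4136, chr11:95959357-95959378, minus strand: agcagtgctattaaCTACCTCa
Igf2bp1, UTR position 4730, chr11:95958763-95958784, minus strand: tataaatggatgaaCTACCTCa
Igf2bp1, UTR position 5353, chr11:95958140-95958161, minus strand: cttttggttttaatCTACCTCt

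Of 80 genes with a 3′ UTR, 11 (13.8%) held at least 1 match on the transcript strand, against 10.01% of the 11561 expressed genes. Matches were at 1.16 per 10 kb of 3′ UTR in the early-lost genes and at 0.722 per 10 kb in all, with median UTR lengths of 1288.5 and 1106 bases. The first rate leans on Hmga2 and Igf2bp1 with 4 matches each, and a rate without them was not taken. Adam12, Amot, Cbx2, Col26a1, Kif21b, Limd2, Scube3, Sec1 and Tmem2 held 1 match each. Mycn held none in its annotated 3′ UTR. A match is a run of letters and not a tested target site, and let-7 itself was not measured.

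Some of the loci span microRNA hairpins. The mature sequences inside Dnm3os and 2610203C20Rik (named Mir100hg in RefSeq) are shown because these RNAs are known for the microRNAs cut from them. Seeds are in capitals, and coordinates are from RefSeq on GRCm38.
mmu-miR-199a-5p in Dnm3os, chr1:162217844-162217866: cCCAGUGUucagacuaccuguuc
mmu-miR-199a-3p in Dnm3os, chr1:162217883-162217904: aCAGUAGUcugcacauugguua
mmu-miR-214-3p in Dnm3os, chr1:162223438-162223459: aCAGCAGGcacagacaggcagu
mmu-miR-125b-5p in 2610203C20Rik, chr9:41581940-41581961: uCCCUGAGacccuaacuuguga
The mature microRNAs were not measured in these libraries, which hold the longer RNAs. 2610203C20Rik was at 53.1 FPKM at E12.5, 37.8 at E13.5, 35.5 at E14.5, 24.4 at E15.5, 17.4 at E16.5, 14.4 at E17.5 and 13.1 at E18.5. After birth, 2610203C20Rik was at 10.4 at D1, 11.3 at D3, 16.4 at D5, 7.92 at W1, 6.92 at W2, 2.46 at W3, 0.984 at W6 and 2.36 at W8. Its level at W3 to W8 was below every earlier value. Dnm3os was at 9.66 FPKM at E12.5, 6.01 at E13.5, 7.81 at E14.5, 4.02 at E15.5, 3.004 at E16.5, 3.34 at E17.5 and 0.947 at E18.5. After birth, Dnm3os was at 2.65 at D1, 2.82 at D3, 2.25 at D5, 0.999 at W1, 0.926 at W2, 0.489 at W3, 0.101 at W6 and 0.325 at W8. Dnm3os was higher at E14.5 than at E13.5, and it lies inside Dnm3 on the other strand, so reads of the pair could not be told apart here without strand information.

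The promoters of Nkx2-5 and Tlx1, the transcription factor genes with the highest scores, are shown across the transcription start, from RefSeq (GRCm38.p6), with CCAAT and TATAAA on either strand in capitals.
Nkx2-5, chr17:26841516-26841815, minus strand: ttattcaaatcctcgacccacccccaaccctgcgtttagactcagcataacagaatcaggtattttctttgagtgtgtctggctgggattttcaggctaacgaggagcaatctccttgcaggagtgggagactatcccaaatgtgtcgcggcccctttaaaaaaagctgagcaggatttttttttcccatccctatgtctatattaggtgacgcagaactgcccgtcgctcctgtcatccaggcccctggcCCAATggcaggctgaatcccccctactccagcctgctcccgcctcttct
Tlx1, chr19:45150465-45150764, plus strand: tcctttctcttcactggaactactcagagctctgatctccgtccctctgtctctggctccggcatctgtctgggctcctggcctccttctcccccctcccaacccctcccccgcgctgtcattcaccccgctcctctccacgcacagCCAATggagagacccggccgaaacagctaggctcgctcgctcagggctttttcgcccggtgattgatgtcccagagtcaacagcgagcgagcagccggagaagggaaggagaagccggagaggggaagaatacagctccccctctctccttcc
Both windows held a single CCAAT and no TATAAA. A promoter of this length was found for 68 of the early-lost genes and for 9482 genes that reached 5 FPKM, with the first listed start taken. CCAAT stood in 55.9% of the 68 promoters and in 38.7% of all of them. TATAAA stood in 10.3% and 7.69%, GGGCGG in 52.9% and 65.5%, AGATAA in 13.2% and 6.17%, CACGTG in 7.35% and 10.03%, AAGTG in 34 of the 68 and 42.8%, and TAATTA in 1.47% and 2.43%. A window with G+C of at least 50% and a CpG ratio, observed over expected, of at least 0.6 was held by 32 of the 68 (47.1%) and by 69.0% of all. The median CpG ratio was 0.63 against 0.767. These shares describe letters in a window, were not tested, and are not binding sites.

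Across the early-lost genes, the fall was spread over several days. Median FPKM of the 95 genes was 15.8 at E12.5, 12.4 at E13.5, 9.59 at E14.5, 6.15 at E15.5, 4.46 at E16.5 and 2.88 at E17.5. It was 2.32 at E18.5, 1.97 at D1, 2.18 at D3, 2.07 at D5, 1.5004 at W1, 1.04 at W2, 0.630 at W3, 0.294 at W6 and 0.464 at W8. The steepest median steps before birth came after E14.5, at 1.46-fold from E14.5 to E15.5, 1.48-fold from E15.5 to E16.5 and 1.54-fold from E16.5 to E17.5. Between E17.5 and E18.5 the median step was 1.14-fold, and from D1 to D3 the median ratio was 0.921, so the fall slowed around birth. A second set of steps followed with 1.43-fold from W1 to W2, 1.77-fold from W2 to W3 and 1.69-fold from W3 to W6. From W6 to W8 the median ratio was 0.756. The matching steps over all genes were not taken. Of all genes tested below, 38.7% were lower at W3 to W8 than at E18.5 to W2, so the late steps are not particular to the early-lost genes.

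**Figure D1:**
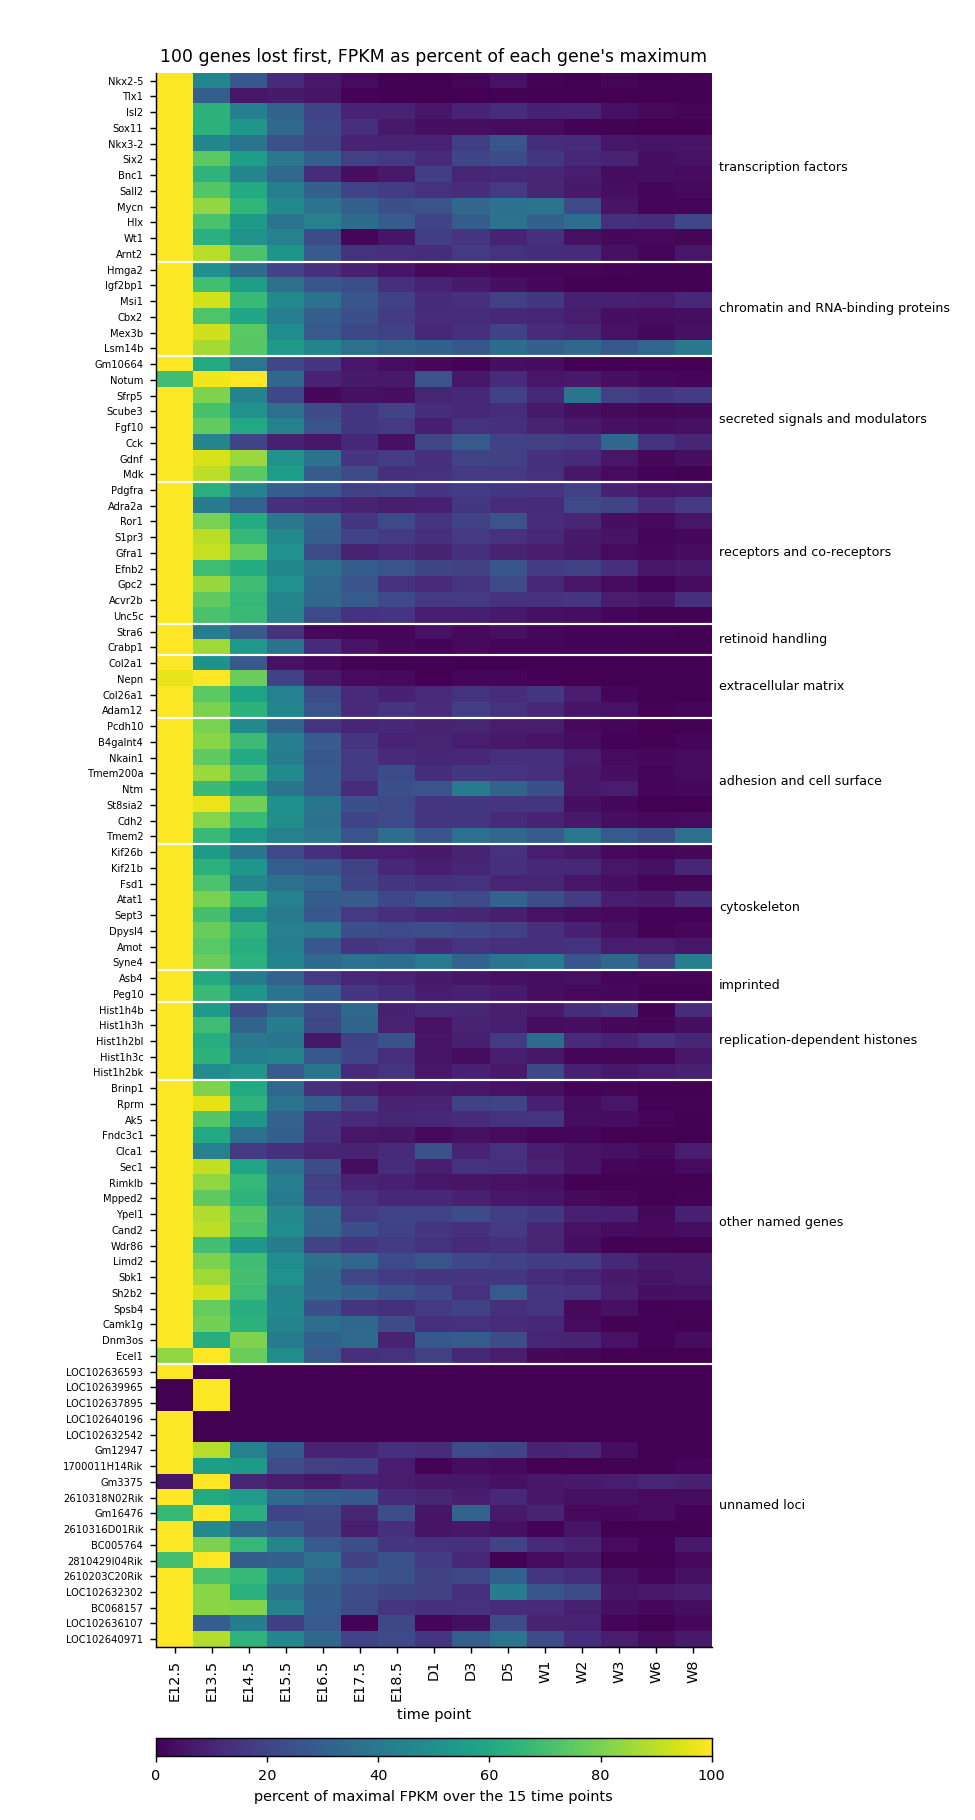
Heat map of the 100 early-lost genes (rows, grouped by role and ordered by score within a role) over 15 time points (columns), coloured by FPKM as percent of each gene's maximum. Most rows are brightest at E12.5, 5 rows of unnamed loci show a value in 1 column only, and Lsm14b, Syne4 and Tmem2 keep visible signal in the oldest stomachs.

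Neighbouring fetal time points were compared through their bounds. All of these time points except E14.5 entered the score, so the counts describe the selected genes and the shares over all genes are given for scale. From E12.5 to E13.5, 73 of the 100 genes were lower at the later point with bounds apart, and 2 were higher. Of 12440 genes that reached 5 FPKM, 12.4% were lower at that step. From E13.5 to E14.5 the count was 71, against 6.99% of all genes, and from E14.5 to E15.5 it was 73, against 13.9%. From E15.5 to E16.5 it was 62, against 20.8%, and from E16.5 to E17.5 it was 60, against 23.1%. The highest later value, which set the score, lay at E15.5 for 82 of the 95 genes with at least 10 fragments. In 33 genes, bounds were apart at all 5 steps, and in 8 genes at none. The matching shares over all genes were not taken, so these 2 counts are not a trait of the early-lost genes.

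**Figure D2:**
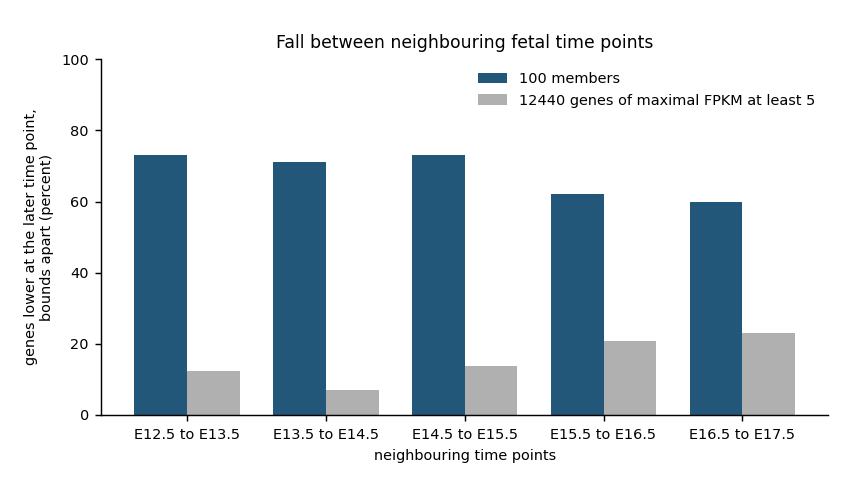
Bar chart of the percent of genes whose FPKM was lower at the later of 2 neighbouring time points with bounds apart, for the 100 early-lost genes (blue) and 12440 genes that reached 5 FPKM (grey). The blue bars sit between 60 and 73 percent and the grey bars between 6.99 and 23.1 percent.

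E14.5 did not enter the score. The share of the log2 fall to E15.5 that was complete at E14.5 had a median of 50.3% over the 95 genes, with quartiles of 42.0% and 60.5%, and 49 genes had completed at least 50%. In 88 genes the E14.5 value lay between the early mean and E15.5. The smallest shares were those of Notum (-23.1%), Dnm3os (-3.52%), Nepn (15.3%), the unnamed BC068157 (15.7%) and Gm16476 (20.1%). The largest were those of the histone genes Hist1h4b (146%), Hist1h3h (139%) and Hist1h3c (108%), then Tlx1 (105.7%) and 2810429I04Rik (104%), which were lower at E14.5 than at E15.5. By role, the median share was 56.4% for 12 transcription factors, 53.1% for 8 secreted signals, 47.8% for 9 receptors and 47.9% for 8 cytoskeletal genes.

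**Figure D3:**
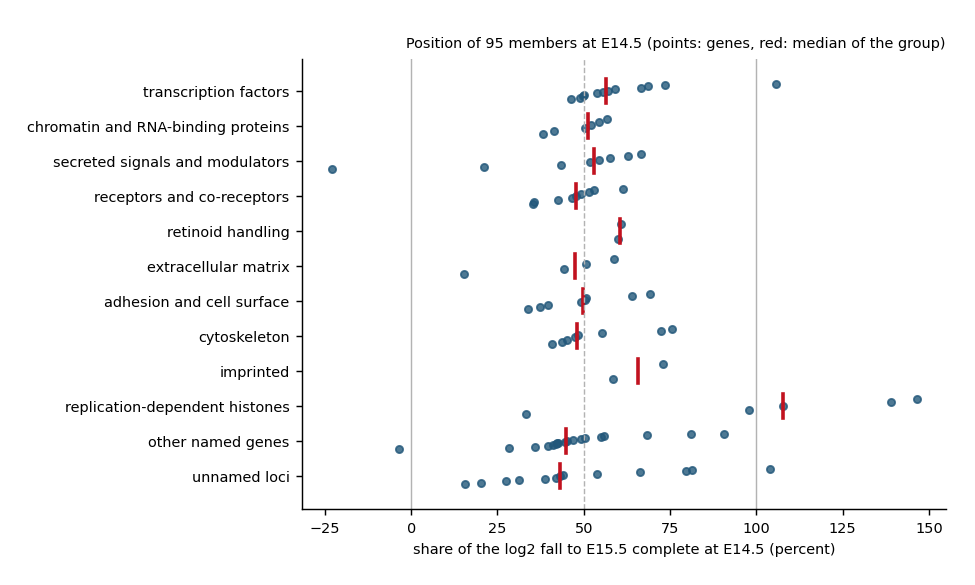
Strip plot of the percent of the log2 fall to E15.5 complete at E14.5 (x axis) for 95 early-lost genes by role (y axis), with each point a gene and each red line the median of its role. Most points lie around 50 percent, the histone genes lie furthest right with a median of 108 percent, and Notum lies furthest left at -23.1 percent.

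Among transcription factors, the early-lost genes included factors of the pyloric and splenic mesenchyme. Nkx2-5 (chr17:26838664-26844997), a homeobox factor of the heart that also marks the pyloric sphincter and the spleen primordium, had the highest score of the group. Nkx2-5 was at 29.3 FPKM at E12.5, 13.3 at E13.5, 8.11 at E14.5, 3.48 at E15.5, 2.04 at E16.5, 0.8104 at E17.5 and 0.169 at E18.5. After birth, Nkx2-5 was at 0 at D1, 0.482 at D3, 1.47 at D5, 0.332 at W1, 0.0371 at W2, 0.543 at W3, 0.0968 at W6 and 0.169 at W8. Nkx2-5 was 8.43-fold lower at E15.5 than at E12.5, and its highest value after birth, at D5, was below that at E16.5. Tlx1 (chr19:45150078-45156943) is a homeobox factor needed for the spleen. Tlx1 was at 13.53 FPKM at E12.5, 4.04 at E13.5, 0.808 at E14.5, 0.966 at E15.5, 0.743 at E16.5, 0.132 at E17.5 and 0.0652 at E18.5. After birth, Tlx1 was at 0.0285 at D1, 0.0382 at D3, 0.0543 at D5, 0.0761 at W1, 0.0793 at W2, 0.0298 at W3, 0.02303 at W6 and 0.0725 at W8. Tlx1 had reached its E15.5 level at E14.5, within bounds, with the largest share complete among the transcription factors. Nkx3-2 (chr5:41761483-41764220), also called Bapx1, acts in the mesenchyme between stomach and spleen. Nkx3-2 was at 11.7 FPKM at E12.5, 5.498 at E13.5, 4.55 at E14.5, 2.93 at E15.5, 2.42 at E16.5, 1.15 at E17.5 and 1.13 at E18.5. After birth, Nkx3-2 was at 1.16 at D1, 2.19 at D3, 3.16 at D5, 1.54 at W1, 1.39 at W2, 0.718 at W3, 0.658 at W6 and 0.616 at W8. Its value at D5 was above that at E15.5 within bounds, so the lowest fetal level was not kept.

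Six2 (chr17:85684267-85688254) is a homeobox factor of the pyloric mesenchyme and of nephron progenitors. Six2 was at 83.3 FPKM at E12.5, 62.4 at E13.5, 46.7 at E14.5, 32.97 at E15.5, 25.4 at E16.5, 15.9 at E17.5 and 14.04 at E18.5. After birth, Six2 was at 10.2 at D1, 17.3 at D3, 19.3 at D5, 13.6 at W1, 9.29 at W2, 8.18 at W3, 3.302 at W6 and 3.997 at W8. Bounds were apart at all 5 steps from E12.5 to E17.5. Wt1 (chr2:105126529-105173614) is a zinc finger factor of the mesothelium that is also needed for the spleen. Wt1 was at 19.5 FPKM at E12.5, 12.4 at E13.5, 10.01 at E14.5, 8.49 at E15.5, 4.46 at E16.5, 0.359 at E17.5 and 1.14 at E18.5. After birth, Wt1 was at 3.63 at D1, 2.902 at D3, 1.94 at D5, 2.63 at W1, 0.908 at W2, 0.392 at W3, 0.489 at W6 and 0.242 at W8. Wt1 was lower at E17.5 than at E16.5 and E18.5 with bounds apart, and its D1 value was above that at E18.5. Bnc1 (chr7:81966662-81992299) encodes the zinc finger protein basonuclin and stood on the mesothelium list. Bnc1 was at 8.801 FPKM at E12.5, 5.74 at E13.5, 4.07 at E14.5, 3.005 at E15.5, 1.14 at E16.5, 0.352 at E17.5 and 0.615 at E18.5. After birth, Bnc1 was at 1.63 at D1, 0.901 at D3, 0.963 at D5, 0.928 at W1, 0.668 at W2, 0.288 at W3, 0.333 at W6 and 0.253 at W8. It too was lowest before birth at E17.5, where its bounds overlapped those at E18.5.

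Isl2 (chr9:55538677-55547672), a LIM homeobox factor of motor neurons, and Sox11 (chr12:27334268-27342718), an SRY-box factor of progenitors of neurons and mesenchyme, were also in the group. Isl2 was at 13.6 FPKM at E12.5, 8.801 at E13.5, 5.88 at E14.5, 4.33 at E15.5, 2.72 at E16.5, 1.28 at E17.5 and 1.36 at E18.5. After birth, Isl2 was at 0.835 at D1, 1.31 at D3, 1.77 at D5, 1.26 at W1, 1.304 at W2, 0.588 at W3, 0.335 at W6 and 0.2401 at W8. Isl2 stayed between 0.835 and 1.77 FPKM from E17.5 to W2. Sox11 was at 29.6 FPKM at E12.5, 19.01 at E13.5, 15.7 at E14.5, 10.1 at E15.5, 6.25 at E16.5, 4.11 at E17.5 and 2.07 at E18.5. After birth, Sox11 was at 1.2 at D1, 1.26 at D3, 0.943 at D5, 0.822 at W1, 0.342 at W2, 0.193 at W3, 0.0249 at W6 and 0.0367 at W8. Sox11 had bounds apart at all 5 fetal steps and was lowest at W6. Of the other transcription factors, Hlx, Sall2 and Arnt2 were at 12.4, 22.8 and 12.3 FPKM at E12.5 and at 4.81, 9.83 and 6.38 FPKM at E15.5.

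**Figure D4:**
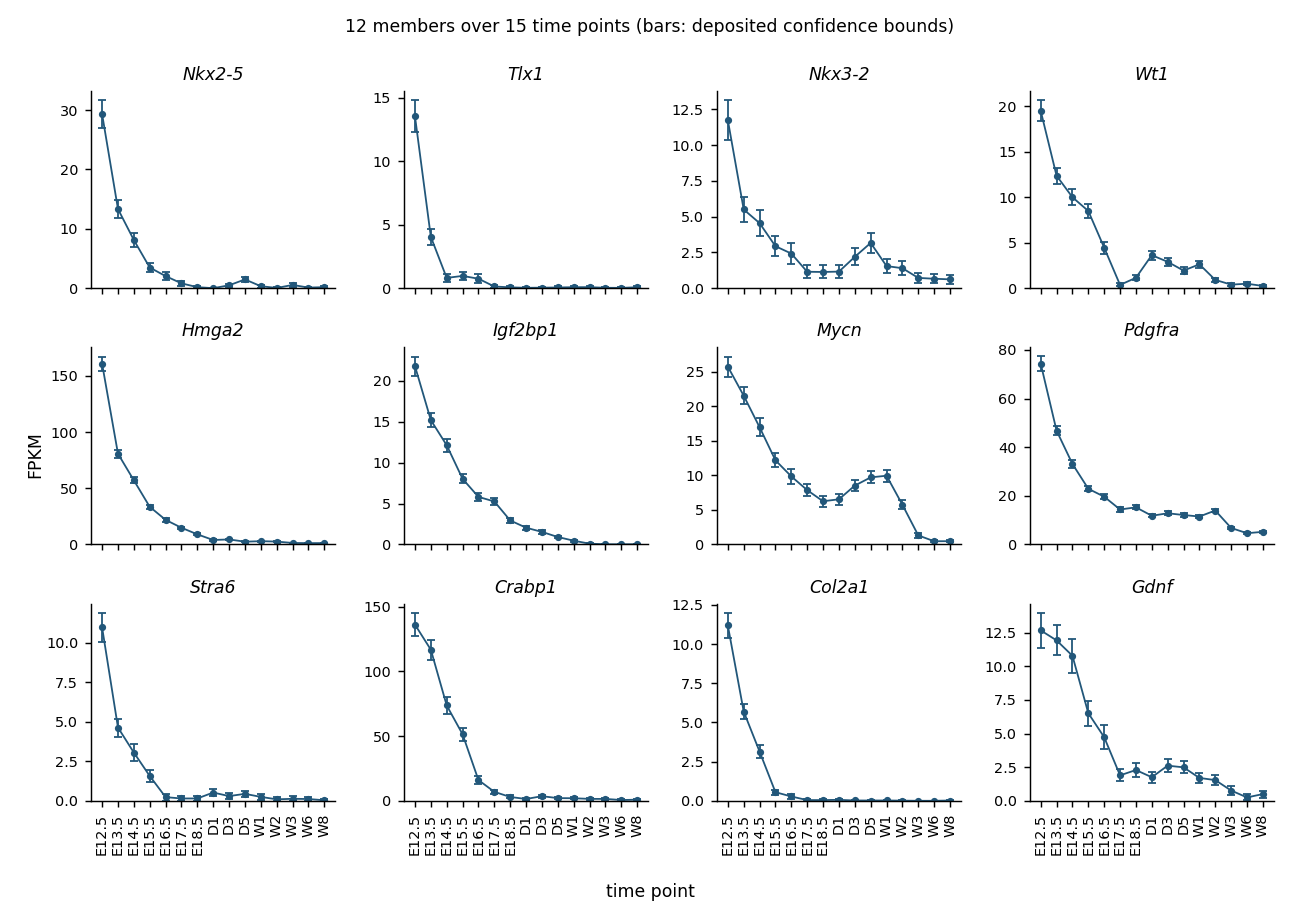
Line plots of FPKM (y axis, from 0) at the 15 time points (x axis) for 12 early-lost genes, with bars for the deposited confidence bounds. Each gene is highest at E12.5, Wt1 dips to 0.359 FPKM at E17.5, and Mycn holds a plateau until W1 before it drops to 1.31 FPKM at W3.

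Chromatin and RNA-binding proteins of the embryo formed a second group of 6 genes. Hmga2 (chr10:120361275-120476935) encodes a chromatin protein of the high mobility group that is typical of embryonic cells. Hmga2 was at 161 FPKM at E12.5, 80.8 at E13.5, 57.1 at E14.5, 33.5 at E15.5, 21.9 at E16.5, 14.9 at E17.5 and 9.03 at E18.5. After birth, Hmga2 was at 3.99 at D1, 4.495 at D3, 2.48 at D5, 2.94 at W1, 2.58 at W2, 1.36 at W3, 1.21 at W6 and 1.23 at W8. Hmga2 was 10.8-fold lower at E17.5 than at E12.5, with bounds apart at all 5 steps. Igf2bp1 (chr11:95957163-96005944) encodes an RNA-binding protein that stabilises growth-related mRNAs. Igf2bp1 was at 21.8 FPKM at E12.5, 15.2 at E13.5, 12.1 at E14.5, 8.02 at E15.5, 5.81 at E16.5, 5.26 at E17.5 and 2.94 at E18.5. After birth, Igf2bp1 was at 2.05 at D1, 1.54 at D3, 0.913 at D5, 0.463 at W1, 0.0977 at W2, 0.02602 at W3, 0.0201 at W6 and 0.0317 at W8. Igf2bp1 was lower at each successive point until W6. Mycn (chr12:12936093-12941836) encodes a MYC-family factor of proliferating progenitors, and is counted among the transcription factors. Mycn was at 25.7 FPKM at E12.5, 21.5 at E13.5, 16.97 at E14.5, 12.2 at E15.5, 9.85 at E16.5, 7.87 at E17.5 and 6.25 at E18.5. After birth, Mycn was at 6.54 at D1, 8.52 at D3, 9.71 at D5, 9.95 at W1, 5.75 at W2, 1.31 at W3, 0.471 at W6 and 0.477 at W8. Mycn stood apart from Hmga2 and Igf2bp1 by a plateau between 5.75 and 9.95 FPKM from E17.5 to W2.

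The other genes of the let-7 and LIN28 list were not chosen. E2f5 was at 22.4 FPKM at E12.5 and 11.97 FPKM at E15.5, and E2f6 was at 32.03 and 21.7 FPKM. Lin28b, which blocks let-7 maturation, was at 1.202 FPKM at E12.5, 0.447 at E13.5 and 0.288 at E15.5, below the minimum of 5. Arid3b was at 4.205 and 1.87 FPKM at E12.5 and E15.5. The Polycomb gene Cbx2 was at 34.4 FPKM at E12.5, 14.7 at E15.5 and 1.23 at W8. Msi1, which encodes the RNA-binding protein Musashi, was at 27.6, 13.2 and 3.16 FPKM at the same points.

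Retinoid handling was represented by Stra6 (chr9:58063749-58154004), the membrane receptor for retinol-binding protein, and Crabp1 (chr9:54764748-54773110), a cellular carrier of retinoic acid. Stra6 was at 10.98 FPKM at E12.5, 4.64 at E13.5, 3.05 at E14.5, 1.57 at E15.5, 0.232 at E16.5, 0.147 at E17.5 and 0.148 at E18.5. After birth, Stra6 was at 0.523 at D1, 0.298 at D3, 0.441 at D5, 0.247 at W1, 0.0933 at W2, 0.126 at W3, 0.114 at W6 and 0.0342 at W8. Stra6 was 74.6-fold lower at E17.5 than at E12.5, but its E17.5 value had bounds of 0 and 0.314 FPKM, so the size of the fold is uncertain. Crabp1 was at 136 FPKM at E12.5, 117 at E13.5, 73.7 at E14.5, 51.4 at E15.5, 16.02 at E16.5, 6.92 at E17.5 and 2.97 at E18.5. After birth, Crabp1 was at 1.398 at D1, 3.57 at D3, 2.07 at D5, 1.99 at W1, 1.48 at W2, 1.46 at W3, 0.603 at W6 and 0.858 at W8. Crabp1 had bounds apart at all 5 fetal steps. Aldh1a2, which makes retinoic acid and was not chosen, was at 66.6 FPKM at E12.5, 49.9 at E15.5 and 33.2 at E17.5.

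Among secreted signals, Gm10664 (chr8:65028417-65037336), named Apela in RefSeq, encodes a peptide ligand of the apelin receptor. Gm10664 was at 6.27 FPKM at E12.5, 3.81 at E13.5, 2.47 at E14.5, 1.34 at E15.5, 0.957 at E16.5, 0.38 at E17.5 and 0.224 at E18.5. After birth, Gm10664 was at 0.141 at D1, 0.0657 at D3, 0.248 at D5, 0.196 at W1, 0 at W2, 0 at W3, 0 at W6 and 0 at W8. It was listed at 0 from W2 on, and rests on 93.7 fragments at most. Fgf10 (chr13:118714699-118792573) is a mesenchymal growth factor for foregut epithelium. Fgf10 was at 10.9 FPKM at E12.5, 8.27 at E13.5, 6.597 at E14.5, 4.79 at E15.5, 2.85 at E16.5, 1.77 at E17.5 and 1.81 at E18.5. After birth, Fgf10 was at 0.924 at D1, 1.58 at D3, 1.48 at D5, 1.07 at W1, 0.769 at W2, 0.502 at W3, 0.368 at W6 and 0.487 at W8. Fgf10 was 6.15-fold lower at E17.5 than at E12.5. Sfrp5 (chr19:42197971-42202252) encodes a secreted inhibitor of Wnt signals. Sfrp5 was at 8.996 FPKM at E12.5, 7.24 at E13.5, 4.03 at E14.5, 1.91 at E15.5, 0.206 at E16.5, 0.393 at E17.5 and 0.357 at E18.5. After birth, Sfrp5 was at 0.923 at D1, 0.998 at D3, 1.75 at D5, 1.05 at W1, 3.51 at W2, 1.71 at W3, 1.42 at W6 and 1.62 at W8. Sfrp5 was lowest at E16.5, and its value at W2 was above that at E15.5. Notum encodes an enzyme that inactivates Wnt proteins, and was at 10.4, 14.7, 15.01 and 5.097 FPKM from E12.5 to E15.5 in turn. Cck, which encodes the gut hormone cholecystokinin, was at 10.9 FPKM at E12.5, 0.958 at E15.5 and 3.67 at W3. Mdk was by far the most abundant, at 1716 FPKM at E12.5, 941 at E15.5, 401 at E17.5 and 7.68 at W8.

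GDNF and its co-receptor, the pair that draws neural crest cells into the gut, were both among the early-lost genes. Gdnf lies at chr15:7811011-7837575 and Gfra1 at chr19:58235581-58455946. Gdnf was at 12.7 FPKM at E12.5, 11.9 at E13.5, 10.8 at E14.5, 6.52 at E15.5, 4.73 at E16.5, 1.89 at E17.5 and 2.29 at E18.5. After birth, Gdnf was at 1.75 at D1, 2.61 at D3, 2.49 at D5, 1.702 at W1, 1.54 at W2, 0.764 at W3, 0.251 at W6 and 0.501 at W8. Gfra1 was at 57.2 FPKM at E12.5, 52.3 at E13.5, 43.6 at E14.5, 28.9 at E15.5, 12.9 at E16.5, 5.38 at E17.5 and 7.098 at E18.5. At E14.5, 21.1% of the fall of Gdnf to E15.5 and 35.5% of that of Gfra1 were complete, both below the lower quartile. After birth, Gfra1 was at 5.59 at D1, 7.59 at D3, 5.46 at D5, 4.62 at W1, 3.68 at W2, 1.75 at W3, 1.27 at W6 and 1.84 at W8. The summed level of the neural crest list was 879.5 FPKM at E12.5, 962 at E13.5 and 870.0 at E15.5. It then fell to 682 at E16.5 and 489 at E17.5. Genes of this list with the highest scores among those not chosen were Nefm, Crmp1, Foxd3 and Edn3. Nefm was at 7.27 FPKM at E12.5 and 2.77 at E15.5, Crmp1 at 49.5 and 25.7, Foxd3 at 7.402 and 5.096, and Edn3 at 12.8 and 7.96.

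Among receptors, Pdgfra (chr5:75151417-75198211), the PDGF receptor of mesenchymal cells, had the highest score. Pdgfra was at 74.4 FPKM at E12.5, 46.8 at E13.5, 33.1 at E14.5, 22.9 at E15.5, 19.7 at E16.5, 14.4 at E17.5 and 15.3 at E18.5. After birth, Pdgfra was at 11.8 at D1, 12.8 at D3, 12.1 at D5, 11.5 at W1, 13.98 at W2, 6.78 at W3, 4.63 at W6 and 5.21 at W8. Bounds were apart at all 5 steps to E17.5, and a level between 11.5 and 15.3 FPKM was then held from E18.5 to W2. The other 8 receptors and co-receptors had maximal FPKM between 7.91 (Adra2a, an adrenergic receptor) and 57.2 (Gfra1). Ror1, a receptor for WNT5A, was at 15.6 FPKM at E12.5, 6.15 at E15.5 and 2.54 at E17.5. Efnb2, an ephrin of arteries and mesenchyme, was at 50.97, 23.3 and 15.1 FPKM at those points.

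The matrix gene with the highest score was Col2a1 (chr15:97975602-98004724), the chain of type II collagen, best known from cartilage. Col2a1 was at 11.2 FPKM at E12.5, 5.698 at E13.5, 3.14 at E14.5, 0.549 at E15.5, 0.275 at E16.5, 0.0458 at E17.5 and 0.0455 at E18.5. After birth, Col2a1 was at 0.0621 at D1, 0.01998 at D3, 0.0189 at D5, 0.0199 at W1, 0.01 at W2, 0 at W3, 0 at W6 and 0.0184 at W8. Col2a1 was 20.4-fold lower at E15.5 than at E12.5. Of the 16 cartilage genes, 9 were lower at E15.5 than at E12.5 and 7 were higher. Acan and Matn1 reached at most 0.138 and 0.0633 FPKM in any sample. Col9a2 was at 21.3 FPKM at E12.5 and 22.5 at E15.5, Matn4 at 4.07 and 5.42, and Sox9 at 8.23 and 9.86, while Col11a1 was at 21.7 FPKM at E12.5 and 15.3 at E15.5, and Col9a1 at 3.54 and 1.37. Nepn (chr10:52388884-52404611) encodes nephrocan, a secreted leucine-rich repeat protein. Nepn was at 40.6 FPKM at E12.5, 42.04 at E13.5, 32.5 at E14.5, 8.12 at E15.5, 2.94 at E16.5, 1.17 at E17.5 and 1.02 at E18.5. After birth, Nepn was at 0 at D1, 0.509 at D3, 0.5096 at D5, 0.149 at W1, 0 at W2, 0.0675 at W3, 0.0521 at W6 and 0.137 at W8. Nepn was level between E12.5 and E13.5 and then 3.997-fold lower at E15.5 than at E14.5. Col26a1 and Adam12, a metalloprotease, were at 29.6 and 9.897 FPKM at E12.5 and at 12.9 and 4.55 FPKM at E15.5.

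Adhesion and cytoskeletal genes followed. Kif26b (chr1:178529125-178939200) encodes a kinesin-family protein. Kif26b was at 17.503 FPKM at E12.5, 9.54 at E13.5, 6.77 at E14.5, 3.84 at E15.5, 2.403 at E16.5, 1.43 at E17.5 and 1.41 at E18.5. After birth, Kif26b was at 1.16 at D1, 1.67 at D3, 2.51 at D5, 1.39 at W1, 1.099 at W2, 0.453 at W3, 0.2803 at W6 and 0.364 at W8. Kif26b had bounds apart at all 5 fetal steps, and its D5 value was above that at E16.5 within bounds. Pcdh10 (chr3:45378398-45434579) encodes a protocadherin, a cell adhesion protein. Pcdh10 was at 8.805 FPKM at E12.5, 7.03 at E13.5, 4.19 at E14.5, 2.84 at E15.5, 1.33 at E16.5, 0.926 at E17.5 and 1.002 at E18.5. After birth, Pcdh10 was at 0.832 at D1, 0.9096 at D3, 0.6697 at D5, 0.674 at W1, 0.235 at W2, 0.119 at W3, 0.0153 at W6 and 0.0226 at W8. Pcdh10 stayed below its E18.5 level from D1 on. Brinp1 (chr4:68761372-68954397) encodes a protein induced by BMP and retinoic acid in neurons. Brinp1 was at 16.4 FPKM at E12.5, 13.3 at E13.5, 9.96 at E14.5, 5.5 at E15.5, 2.26 at E16.5, 1.44 at E17.5 and 0.995 at E18.5. After birth, Brinp1 was at 1.19 at D1, 0.981 at D3, 0.771 at D5, 0.616 at W1, 0.181 at W2, 0.205 at W3, 0.07899 at W6 and 0.0277 at W8. Brinp1 had bounds apart at all 5 fetal steps. Rprm (chr2:54084093-54085552) encodes Reprimo, a brake on the cell cycle. Rprm was at 18.53 FPKM at E12.5, 17.7 at E13.5, 12.04 at E14.5, 7.08 at E15.5, 5.59 at E16.5, 3.504 at E17.5 and 1.86 at E18.5. After birth, Rprm was at 1.85 at D1, 3.67 at D3, 3.802 at D5, 1.67 at W1, 0.62503 at W2, 1.14 at W3, 0.204 at W6 and 0.178 at W8. Rprm was level from E12.5 to E13.5 within bounds.

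Imprinted genes were represented by Peg10 (chr6:4747306-4760517), expressed from the paternal allele, and Asb4 (chr6:5383386-5433023), expressed from the maternal allele, which lie near each other on chromosome 6. Peg10 was at 30.8 FPKM at E12.5, 20.7 at E13.5, 16.3 at E14.5, 11.9 at E15.5, 9.48 at E16.5, 4.86 at E17.5 and 4.04 at E18.5. After birth, Peg10 was at 2.38 at D1, 2.84 at D3, 2.26 at D5, 1.28 at W1, 0.7799 at W2, 0.651 at W3, 0.172 at W6 and 0.154 at W8. Asb4 was at 9.86 FPKM at E12.5, 6.03 at E13.5, 4.04 at E14.5, 3.11 at E15.5, 1.64 at E16.5, 1.13 at E17.5 and 0.949 at E18.5. Both were highest at E12.5. After birth, Asb4 was at 0.716 at D1, 0.571 at D3, 0.439 at D5, 0.354 at W1, 0.448 at W2, 0.175 at W3, 0.175 at W6 and 0.142 at W8. Asb4 had completed 72.9% of its fall to E15.5 at E14.5, and Peg10 58.6%. The summed level of the imprinted list was higher at E15.5, with 6903 FPKM at E12.5 and 7708 at E15.5. A sum follows the most abundant genes. The median score of the 23 listed genes that reached 5 FPKM was 0.256. A typical one was thus higher at E12.5 and E13.5 than at any point from E15.5 on. Genes of the list with the highest scores among those not chosen were lower at E15.5. Nnat was at 446 FPKM at E12.5 and 244 at E15.5, Mest at 293 and 183, and Grb10 at 355 and 222.

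The remaining genes with high scores had no assigned function. Gm12947 was at 5.55 FPKM at E12.5, 4.95 at E13.5, 2.44 at E14.5, 1.54 at E15.5, 0.553 at E16.5, 0.548 at E17.5 and 0.751 at E18.5. After birth, Gm12947 was at 0.707 at D1, 1.23 at D3, 1.16 at D5, 0.562 at W1, 0.566 at W2, 0.211 at W3, 0 at W6 and 0 at W8. Gm12947 is a pseudogene in RefSeq with 56.0 fragments at most. 1700011H14Rik was at 6.1 FPKM at E12.5, 3.403 at E13.5, 3.32 at E14.5, 1.44 at E15.5, 1.16 at E16.5, 1.13 at E17.5 and 0.471 at E18.5. After birth, 1700011H14Rik was at 0.0556 at D1, 0.207 at D3, 0.147 at D5, 0 at W1, 0 at W2, 0.0474 at W3, 0.04499 at W6 and 0.0939 at W8. 1700011H14Rik had bounds apart from E12.5 to E13.5 and from E14.5 to E15.5. Gm3375, another pseudogene, was at 1.51 FPKM at E12.5, 23.03 at E13.5 and 2.45 at E14.5, so that a single transcriptome put it among the early-lost genes. The 5 histone genes Hist1h4b, Hist1h3h, Hist1h3c, Hist1h2bl and Hist1h2bk have near-identical copies and mRNAs without a poly(A) tail, while the libraries were made from mRNA captured on oligo beads, so their values are uncertain. LOC102636107 lies on the Y chromosome and was at 11.9 FPKM at E12.5 and 3.52 at E13.5. The sex of each fetal sample was not given. In 17 genes, the locus overlapped another expressed entry, as with Hmga2 and LOC102637949, Cand2 and Rpl32, and LOC102632302 and Hoxb3, and the strand used in counting was not stated.

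The later time points were compared in 3 windows. The first window holds the fall from E15.5 to E17.5, so its comparison cannot show whether genes went on falling after E17.5. Time points served as replicates of a window, with E15.5 to E17.5 (n = 3), E18.5 to W2 (n = 6) and W3 to W8 (n = 3), so the spread within a window includes change over time. Of the 100 genes, 93 reached 1 FPKM in these 12 transcriptomes and were tested among 16538 genes. The filter removed only genes that were already low. All 12 time points lie in the range whose highest value the score subtracted, E15.5 being that value for most genes. A late rise was thus selected against, and the counts below, above all the absence of higher genes, are partly fixed by the choice of genes and support nothing about them.

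From E15.5 to E17.5 to the window E18.5 to W2, 30 of the 93 genes were lower at an adjusted p under 0.01 (limma, Benjamini-Hochberg) and 0 were higher, where 8.52% of all tested genes were lower. At an unadjusted p under 0.05, 70 were lower and 0 higher (limma), and 89 of the 93 genes had a lower mean. The matching shares over all genes were not taken, so these counts are not a trait of the early-lost genes. The median difference in log2(FPKM + 1) was -0.82 for the genes and -0.20 for all genes tested. Crabp1 had the largest difference, -2.60 ± 0.45 (SE, limma adjusted p = 0.00436). Hmga2 followed with -2.25 ± 0.32 (limma adjusted p = 0.00360), then Sox11 with -1.86 ± 0.26 (limma adjusted p = 0.00340) and Igf2bp1 with -1.77 ± 0.33 (limma adjusted p = 0.00507). Nepn, Peg10, B4galnt4 (a glycosyltransferase), Sept3 (a septin), Gpc2 (a glypican), Cbx2, Msi1, Sall2, Fsd1, Unc5c (a netrin receptor), Asb4, Acvr2b (an activin receptor), Gm10664 and Kif21b (a kinesin) were also lower. So were Hist1h3c, Hist1h3h, Rimklb, 2610318N02Rik, Cand2, Sbk1, Nkain1, Fndc3c1, 1700011H14Rik, Camk1g, Limd2 and BC068157. The count depended on single time points. It was 0 without E15.5, 0 without E16.5, 3 without W1, 7 without D3, 11 without D5, 13 without D1, 17 without W2 and 45 without E17.5.

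From the window E18.5 to W2 to the window W3 to W8, 46 of the 93 genes were lower at the same threshold and 0 were higher, and 38.7% of all tested genes were lower. At an unadjusted p under 0.05, 72 were lower and 1 was higher (limma), again with no share over all genes taken. The median difference was -0.82 for the genes and -0.44 for all genes. Mdk had the largest difference, -3.51 ± 0.49 (SE, limma adjusted p = 0.000369). Mycn followed with -2.33 ± 0.21 (limma adjusted p = 0.000178) and 2610203C20Rik with -2.03 ± 0.27 (limma adjusted p = 0.000332). Pdgfra was lower by -1.10 ± 0.16 (limma adjusted p = 0.000376) and Six2 by -1.32 ± 0.29 (limma adjusted p = 0.00281). Gdnf, Gfra1, Ror1, Efnb2, S1pr3, Gpc2, Cdh2 (N-cadherin), Ntm, St8sia2 (a polysialyltransferase), Tmem200a, Nkain1, B4galnt4, Col26a1, Kif26b, Dpysl4, Atat1 (a tubulin acetyltransferase), Sept3 and Fsd1 were among the others. Further genes lower here were Wdr86, BC005764, Cand2, Spsb4, Sall2, Mpped2, Peg10, Mex3b, Limd2, Cbx2, Dnm3os, Sbk1, Sox11, Arnt2, Camk1g, 2610318N02Rik, Gm12947, LOC102640971, LOC102632302, Ak5, Hlx, Sh2b2 and BC068157. The count was 15 without W6 and 27 without W8, and from 35 to 55 when any other single time point was left out. W3 to W8 were male and the earlier stomachs of unstated sex, so age and sex cannot be told apart here.

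**Figure D5:**
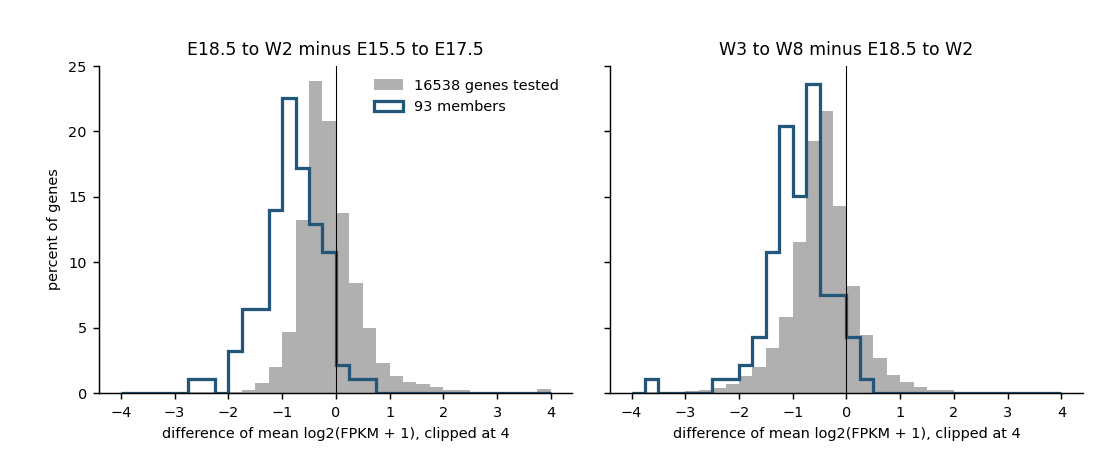
Histograms of the difference in mean log2(FPKM + 1) between windows of time points (x axis, values beyond 4 placed at 4) for 16538 genes tested (grey) and 93 early-lost genes (blue), in percent of genes (y axis). The early-lost genes lie to the left of all genes in the left panel, with medians of -0.82 and -0.20, and in the right panel with medians of -0.82 and -0.44.

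In all, 15 genes passed the threshold in both comparisons, 15 in the first alone, 31 in the second alone and 32 in neither, and the difference between the comparisons was not tested. The matching split over all tested genes was not taken, so this split is not a trait of the early-lost genes. Scaling bears on the counts of both comparisons. The median of all genes was itself below 0, and after median-ratio scaling, which moves it to 0.01 and 0.00, 13 genes were lower and 0 higher in the first comparison, and 28 lower and 2 higher in the second. Over all genes, the scaling turned 1409 lower and 572 higher into 401 and 612 in the first comparison, and 6397 and 614 into 1827 and 2659 in the second. At E12.5 to E15.5 the scaling factors were 1.27, 1.27, 1.27 and 1.26, so the early fall was hardly touched by it, while at W6 the factor was 0.570. The genes that kept signal to the end were few. In 13 of the 95, the W8 value was at least 10% of the maximum, with Lsm14b at 53.9 FPKM at E12.5 and 21.3 at W8, Syne4 at 15.8 and 6.83, and Tmem2 at 11.1 and 4.11. In another 13, partly the same, the highest later value was not at E15.5.

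Gene lists show where the early-lost genes sit among like genes. The lists were compiled with the earlier results known, so the choice of list can itself set a count of early-lost genes. Over all, 100 of 12398 symbols that reached 5 FPKM were early-lost, which applies to each list. Of 95 homeobox and patterning factors, 45 reached 5 FPKM and 7 were among the early-lost genes. In the later windows, where 8.52% and 38.7% of all tested genes were lower in the first and the second comparison, 3 of 55 tested were lower and 1 higher in the first comparison, and 32 lower and 4 higher in the second. Barx1, the factor that specifies stomach mesenchyme, ranked below the chosen genes with 472 FPKM at E12.5 and 262 at E15.5, and Meis2 with 96.7 and 53.5. Hand1 and Lhx9 were below the minimum, at 2.78 and 3.64 FPKM at E12.5.

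Of 22 genes on the let-7 and LIN28 list, 16 reached 5 FPKM and 3 were early-lost. Over all tested genes, 8.52% were lower in the first later comparison and 38.7% in the second, which applies to each list here. In the first later comparison 8 of 19 tested were lower and in the second 12, with 0 higher in either. Of 45 DNA replication genes, none was early-lost, although 36 were lower in the first later comparison and 37 in the second. Mcm2 was at 81.96 FPKM at E12.5 and 55.2 at E15.5. Of 30 imprinted genes, 23 reached 5 FPKM, 2 were early-lost, 5 of 29 tested were lower in the first later comparison and 23 in the second. Of 58 embryonic signals, 2 were early-lost, and 6 of 43 were lower and 2 higher in the first comparison, then 23 lower and 1 higher in the second. Of 51 neural crest genes, 2 were early-lost, and 3 of 42 were lower in the first comparison, then 36 lower and 2 higher in the second. Of 24 pluripotency and germline genes, 2 reached 5 FPKM and none was early-lost, and 1 of 6 was lower in each comparison.

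Markers of neighbouring organs and of other cells were examined beside these results. Of 10 spleen primordium genes, 8 reached 5 FPKM and 4 were early-lost (Nkx2-5, Tlx1, Nkx3-2 and Wt1), against 100 of 12398 over all. The list was compiled with earlier results known, so this count supports nothing about the spleen. The summed level of the list was 904 FPKM at E12.5, 535 at E15.5 and 294 at E17.5. Barx1, a gene of the stomach mesenchyme that the list also holds, made up 472, 262 and 150.3 FPKM of these sums. Tcf21, also needed for the spleen, was at 247 FPKM at E12.5 and 182 at E15.5. Whether a piece of spleen primordium was taken along with the earliest stomachs was not tested. Of 16 cartilage genes 1 was early-lost (Col2a1), and the list summed to 83.2 FPKM at E12.5 and 68.8 at E15.5. Of 20 genes of mesonephros, gonad and adrenal 1 was early-lost (Wt1), and the list went from 142 FPKM at E12.5 to 116 at E15.5, with Hsd3b6 at 3.54 and 0.161. The lung defining genes Sftpc and Sftpb were at most at 0.0985 and 0.0773 FPKM. No early-lost gene was on the lists of erythroid cells (295 FPKM at E12.5, 298 at E15.5), pancreas (35.97 and 92.03), lung (144 and 156), skeletal and cardiac muscle (76.3 and 171), intestine (19.5 and 29.9), leukocytes (127 and 179) or endothelium (238 and 254). Globins, which erythroid cells make, had been left out of the choice by class.

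Lists of stomach epithelium and smooth muscle were summed in the same way, and the cell content of the samples was not tested. The summed level of 28 gastric epithelial genes was 1038 FPKM at E12.5, 4440.0 at E15.5 and 285253 at W8, and none of them was early-lost. Smooth muscle genes, of which none was early-lost, summed to 1984 FPKM at E12.5 and 5749.9 at E15.5. Hepatocyte genes, none of them early-lost, summed to 90.3 FPKM at E12.5 and 122 at E15.5 and to 2357 at D1, where Alb was at 461 FPKM, Apoa1 at 399 and Afp at 186. The sum was also high at W3, W6 and W8, at 1696, 2495 and 2314 FPKM. Apoa1 alone was at 1259, 2270 and 2125 FPKM at these points. Without D1 the later counts were 13 and 38, in place of 30 and 46.

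Some mesothelium genes were low at E17.5. Of 18 genes on the list, Wt1 and Bnc1 were early-lost, and 7 were lower at E17.5 than at both E16.5 and E18.5 with bounds apart (Wt1, Upk3b, Lrrn4, Gpm6a, Rspo1, Muc16 and Cdh1, the last also a gene of epithelia), against 5.53% of all genes. Upk3b, the uroplakin of mesothelial cells, was at 26.5 FPKM at E16.5, 10.9 at E17.5 and 23.2 at E18.5. Lrrn4 was at 2.8, 0.283 and 2.08 FPKM, and Rspo1, a Wnt agonist, at 9.61, 2.8 and 6.85 FPKM at these points. Other genes of the list did not dip. Msln, which encodes mesothelin, was at 23.99, 27.2 and 15.8 FPKM, and Krt7 at 281, 268 and 132 FPKM. Upk1b was at 30.95, 15.03 and 8.901 FPKM, and Krt8, Krt18 and Krt19, keratins that epithelia also express, were higher at each of these points than at the one before. Among the early-lost genes, 8 of the 100 had such a dip with bounds apart (Wt1, Sec1, Ror1, Tmem200a, Gfra1, Ntm, LOC102636107 and Tmem2). The amount of outer tissue in the E17.5 sample was not tested as a source of these values.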

How the data were processed

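RNA was sequenced from 1 C57BL/6 stomach sample per time point, 15 in all. The reporting summary gives 3 pooled stomachs per replicate at E12.5 to E14.5, 2 at E15.5 to E17.5 and 1 later, without saying whether this covers the RNA. The study's methods describe mRNA isolation on oligo magnetic beads, with RNA from liver tissues, whereas the labels give stomach. The authors deposited FPKM with lower and upper bounds per transcript entry. The submitters' processing notes name Bowtie 0.12.2, FastQC and GRCm38.p2, and the study's methods name HISAT2 and StringTie. Whether counting used strand was not given in the sources used here. FPKM are scaled to each library's total, so a few abundant genes late in development lower all others. Entries of 1 symbol were summed, and log2(FPKM + 1) was taken (pandas 2.3.3, NumPy 2.4.6, matplotlib 3.10.9). Bounds apart means that the deposited bounds of 2 values do not overlap. Fragment numbers were derived from the bounds. Deposited starts count from 0, and 1 was added.

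Later windows were compared with limma 3.58.1 (R 4.3.3) over 12 time points and 16538 genes that reached 1 FPKM, with a Benjamini-Hochberg adjusted p under 0.01. The script was tested on simulated data. The contrast of E12.5 to E14.5 with E15.5 to E17.5 had 0 of 15832 genes at that threshold (limma, smallest adjusted p 0.0560) and 6607 at an unadjusted p under 0.05. It holds the rule's own contrast, so nothing was read from it. The genes and the gene lists were chosen with earlier results of these data known. Values at every time point are given for the 20 highest scores and for genes on a list, with ranks 96 to 105 as the values around the limit, the 5 smallest and 5 largest shares at E14.5, genes called in a later comparison and at most 4 others per list. A few further genes, such as Cck, Syne4, Tmem2, Adam12, Gm3375 and LOC102636107, and the microRNAs were named after their values were seen. Alternatives were the pseudocount, the FPKM minimum, the threshold, median-ratio scaling and leaving out each time point.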

Additional observations from a re-analysis of the deposited data

Results flagged for a closer look

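Over the 6 time points from E18.5 to W2, 88 of the early-lost genes were examined for a time point far from the others by Dixon's test, and 8 had one. The test's rate by chance, about 1 in 20, holds for replicates and gives no measure here. The share over all genes was not taken. The time points are not replicates, so a value far from the others can be a change with age. Hmga2 was at 9.03 FPKM at E18.5, with the nearest value at 4.495, and Acvr2b was at 2.80 FPKM at E18.5, with the nearest at 2.15. Notum was at 3.85 FPKM at D1, with the nearest at 1.81, and Bnc1 at 1.63 FPKM at D1, with the nearest at 0.963. Nkx2-5 was at 1.47 FPKM at D5, with the nearest at 0.482. Low values lay at W2 for Mdk (111 FPKM, nearest 240.3), Spsb4 (0.498 FPKM, nearest 2.80) and St8sia2 (0.383 FPKM, nearest 1.5004).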

How the results depend on the processing

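Of 212 alternative values, 161 stayed near the main value in size, with a 0 that stayed 0 counted among them. No paired analysis was possible because each time point had 1 sample. With a maximal FPKM of at least 20, 43 of the 100 genes stayed among the chosen. The other 57 had a maximal FPKM under 20, so this minimum left them out by construction. Of the 100 genes, 47 were chosen under every alternative other than those of the FPKM minimum. For E18.5 to W2 against E15.5 to E17.5, the count of 30 lower genes (limma) became 12 with a pseudocount of 0.1, 1 with no filter, 62 at a threshold of 0.05 and 13 after median-ratio scaling, and it ran from 0 to 45 when each fetal time point was left out in turn, from 7 to 13 for D1 to D5 and from 3 to 25 for W1 to W8. For W3 to W8 against E18.5 to W2, the count of 46 became 21 with a pseudocount of 5, 17 with no filter and 28 after median-ratio scaling, and it ran from 39 to 55 when each fetal time point was left out, from 35 to 38 for D1 to D5 and from 15 to 53 for W1 to W8. The count of higher genes in that comparison became 1 at a threshold of 0.05 and 2 after median-ratio scaling. Leaving out a time point and testing more genes with no filter also change the number of samples or genes by construction. The cause of the remaining shifts was not tested. Depth limits the 15 genes with under 100 fragments.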
